A study of Mus musculus with 10 samples.

Results

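The clustered histone genes of the mouse were examined in chromatin accessibility maps of sperm. They were taken as every protein-coding gene of GENCODE M21 on chromosomes 1 to 19 whose name starts with Hist1h, Hist2h, Hist3h or Hist4h, which gave 67 of 20807 genes. Each gene body was extended by 5 kb on both sides and overlapping stretches were merged into 16 windows of 369.7 kb in all. The data were ATAC-seq peak lists of cauda epididymal sperm, 1 list for each mouse, from wild-type C57BL/6JRccHsd males. F0 CD males (n = 6) were kept on a chow diet and F0 WD males (n = 4) on a Western diet rich in fat and carbohydrate, both for 6 months from the age of 4 weeks. All mice were of the same strain and genotype, and the groups differed in the diet alone, as far as the labels say. The study compared sperm chromatin between these diets.

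Histones are the proteins around which DNA is wound in nucleosomes. H2A, H2B, H3 and H4 make up the core particle and H1 binds the linker DNA between particles. The clustered genes are the replication-dependent ones, which lie side by side in many copies, mostly lack introns and are transcribed when a cell copies its DNA. Late in sperm formation most histones are replaced by protamines, so mature sperm pack their DNA in a different way from other cells and are thought to transcribe very little.

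The Hist1 cluster on chromosome 13 held 54 genes in 11 windows, spread over 2.23 Mb. The Hist2 cluster on chromosome 3 held 10 genes in 3 windows, the Hist3 cluster on chromosome 11 held 2 genes in 1 window, and Hist4 on chromosome 6 was a lone gene. By protein, 6 genes encode H1, 18 encode H2A, 18 encode H2B, 12 encode H3 and 13 encode H4. In the 10 libraries the lists held 13366 to 29532 peaks. The weakest summits that were called held 9 to 13 reads, as worked out from the deposited fold enrichments and p-values, so a site with fewer reads would be listed in no file, and the absence of a peak says no more than that.

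None of the 67 histone genes had a peak within 1 kb of a transcription start site in any of the 10 libraries. Of all protein-coding genes, 22.7% had such a peak in at least 1 library and 7.06% in at least 2. Since most histone genes have a lone start site and many other genes have several, the count was repeated with the outermost start of each gene. It then was 0 of 67 histone genes against 10.9% of the 4526 other genes of the same chromosomes. In a given library, 1.02% to 2.19% of those other genes had a peak there, and 0% of the histone genes did in every library.

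Peak density was then read by distance from the start sites. Within 1 kb of the histone starts there were 0 peaks over all libraries where 7.63 would lie at the mean density of their chromosomes (ratio 0, exact 95% Poisson interval 0 to 0.484). From 1 to 3 kb there were 2 peaks against 9.53 expected (0.210, 0.0254 to 0.758). From 3 to 5 kb the 6 peaks were close to the 6.24 expected, and the ratio was 0.962 (0.353 to 2.09). Farther out the ratio was 0.685 (0.296 to 1.35) at 5 to 10 kb, 1.05 at 10 to 25 kb and 1.07 at 25 to 50 kb. The other genes of the same chromosomes stayed between 0.997 and 1.21 over the same steps, with 0.997 within 1 kb. The lowest values thus lay within 3 kb of the histone starts. The intervals of both steps there overlapped those from 3 to 5 kb and from 5 to 10 kb. A difference between steps was not tested. These intervals cover counting error only, and a site called in several mice is counted each time.

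**Figure D1:**
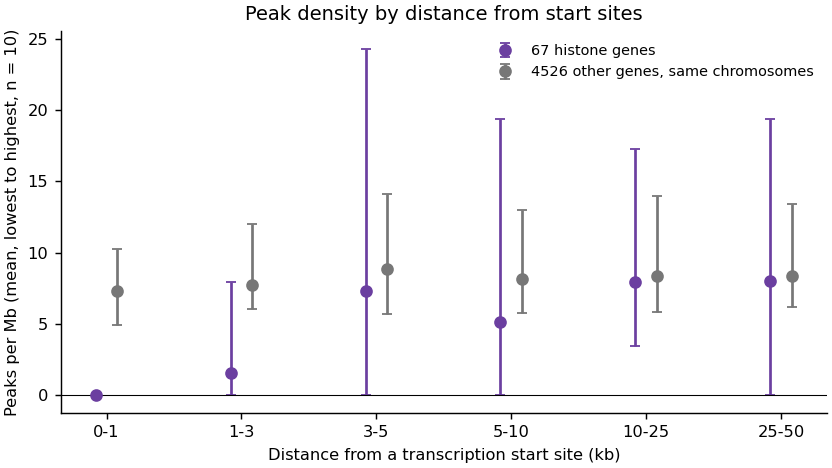
Peaks per Mb (vertical axis) in 6 steps of distance from a transcription start site (horizontal axis, kb), for the 67 histone genes and for 4526 other genes of the same chromosomes; points are means of 10 libraries and bars run from the lowest to the highest library. The histone genes are at 0 within 1 kb in every library and at 1.59 peaks per Mb from 1 to 3 kb, while the other genes lie at 7.32 and 7.76.

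Within 3 kb, 2 of 67 histone genes (2.99%) had a peak in any library against 43.3% of all genes, and within 5 kb 9 of 67 (13.4%) against 55.4%. With the outermost start of each gene alone, the other genes of the same chromosomes were at 26.4% within 3 kb and 39.7% within 5 kb, and the histone genes at the same 2 and 9 of 67. The 9 genes were 1 of 6 H1, 3 of 18 H2A, 2 of 18 H2B, 0 of 12 H3 and 3 of 13 H4 genes. The nearest summit in any library lay at a median of 17.5 kb from the histone starts and of 4.25 kb from the other starts of the same chromosomes. It ranged from 1.41 kb for Hist1h4j, which encodes H4, to 57.6 kb for Hist1h1d, which encodes a somatic H1. The members share their surroundings, so these genes are not separate observations. In particular, 12 pairs of an H2A and an H2B gene stand head to head with 175 to 305 bp between their gene bodies and share 1 promoter stretch each.

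The 3 members with known testis-specific expression were read for themselves. Hist1h1t encodes the linker histone H1t of spermatocytes and spermatids, and Hist1h2aa and Hist1h2ba encode the testis variants TH2A and TH2B. Hist1h1t had no peak within 5 kb in any library, and its nearest summit lay 17.2 kb away, in F0 CD replicate 5. Peaks of F0 CD replicates 2 and 6 and of F0 WD replicates 1, 2 and 3 lay at about the same place. For Hist1h2aa the nearest summit lay 2.98 kb downstream of its start, in F0 WD replicate 3 alone. The head-to-head partner Hist1h2ba was 3.28 kb from that same summit. So these 3 genes, like the somatic ones, had no promoter peak in any of the 10 mice. By the outermost start, 10.9% of the other genes of the same chromosomes had one in any library. With 3 genes, 2 of which share a promoter stretch, the absence says little about germline histone genes.

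The promoter stretches carry the usual letters of histone genes. RefSeq promoters (GRCm38.p6, 250 bases before to 50 after the start) were found for 62 of the 67 genes. CCAAT, the letters bound by NF-Y, occurred on either strand in 85.5% of them against 37.4% of 32851 RefSeq promoters. By protein it was in every matched H1, H2A, H2B and H3 promoter and in 3 of 12 H4 promoters. TATAAA, letters to which the TATA-binding protein binds, was in 56.5% against 13.6%. The octamer ATTTGCAT, bound by Oct1, was in 7 of 18 H2A and 6 of 16 H2B promoters and in none of H1, H3 or H4, against 1.73% of all. AAACACA, the element of H1 promoters, was in 5 of 6 H1 promoters against 7.18% of all. No motif is contained in another, and head-to-head pairs read the same bases from both sides. A match is a description of the letters and not a bound site.

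To show what these stretches without a peak look like, the 200 bases before the RefSeq start are given for the 2 testis genes with separate promoters, a somatic H1, the H4 gene with the nearest peak and an H2A gene of the Hist2 cluster, 5′ to 3′ on the strand of the gene, with the 4 motifs on either strand in capitals. Hist1h1t is chr13:23695611-23695810 on the plus strand, Hist1h2ba is chr13:23934157-23934356 on the minus strand, Hist1h1c is chr13:23738607-23738806 on the plus strand, Hist1h4j is chr13:21734834-21735033 on the plus strand and Hist2h2ac is chr3:96220881-96221080 on the minus strand.
Hist1h1t: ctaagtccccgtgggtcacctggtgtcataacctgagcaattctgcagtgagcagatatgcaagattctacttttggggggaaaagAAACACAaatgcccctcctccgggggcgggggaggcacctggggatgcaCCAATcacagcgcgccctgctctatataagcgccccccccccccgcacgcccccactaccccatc
Hist1h2ba: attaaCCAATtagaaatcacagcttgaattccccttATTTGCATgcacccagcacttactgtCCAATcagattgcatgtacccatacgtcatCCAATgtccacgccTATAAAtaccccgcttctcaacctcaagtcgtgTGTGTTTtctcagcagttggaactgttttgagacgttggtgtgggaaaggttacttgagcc
Hist1h1c: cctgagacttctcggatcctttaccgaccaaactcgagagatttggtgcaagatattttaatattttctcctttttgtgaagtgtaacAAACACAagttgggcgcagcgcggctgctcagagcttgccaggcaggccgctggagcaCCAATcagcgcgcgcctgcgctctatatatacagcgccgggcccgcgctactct
Hist1h4j: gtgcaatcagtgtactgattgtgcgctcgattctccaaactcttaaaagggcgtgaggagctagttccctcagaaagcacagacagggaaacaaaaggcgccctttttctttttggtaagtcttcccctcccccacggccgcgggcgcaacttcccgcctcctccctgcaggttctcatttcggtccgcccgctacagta
Hist2h2ac: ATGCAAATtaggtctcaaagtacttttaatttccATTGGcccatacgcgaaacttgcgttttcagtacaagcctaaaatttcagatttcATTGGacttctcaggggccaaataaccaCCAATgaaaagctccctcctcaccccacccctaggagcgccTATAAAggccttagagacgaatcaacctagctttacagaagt

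The genes also share the hairpin that ends replication-dependent histone mRNAs in place of a poly(A) tail. A 16-base hairpin, made of a 5-base arm that starts with GG and ends with C, the letters TTTT, any base, A and the reverse complement of the arm, was found on the sense strand of 63 of 67 genes, searched from 100 bp before the gene body to 100 bp after it. The most common form, in 41 genes, is shown with the bases between the arms in capitals, beside the form most common in the H4 genes.
Histone hairpin: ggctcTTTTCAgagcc
H4 hairpin: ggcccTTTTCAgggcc
The first was in 5 of 6 H1, 15 of 18 H2A, 13 of 18 H2B and 8 of 12 H3 genes and in 0 of 13 H4 genes, of which 12 had another form. No hairpin of this kind was found in 4 genes.

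Over whole windows the peaks were also sparse. The 16 windows held 14 peaks in 8 of the 10 libraries, where 28.1 would lie at the density of the rest of the same chromosomes (ratio 0.498, exact 95% Poisson interval 0.273 to 0.836). F0 CD replicates 1 to 6 had 0, 4, 2, 0, 1 and 1 peaks, and F0 WD replicates 1 to 4 had 2, 2, 1 and 1. At the density of the rest each library would have 2.02 to 4.60. Every library was below its own expected count. F0 CD replicate 2, whose list is the longest, had 4 against 4.60. The density was 3.79 ± 3.18 peaks per Mb in the windows and 7.60 ± 1.99 in the rest (SD, n = 10). The mean difference was -3.81 peaks per Mb (exact two-sided sign-flip test over the 10 libraries, p = 0.001953, the smallest that 1024 flips can give, adjusted 0.005859 over the 3 sets with a peak, which are all windows, Hist1 and Hist3). This and the other sign-flip tests cover the spread between mice for these windows alone. They do not measure how windows vary from place to place in the genome.

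**Figure D2:**
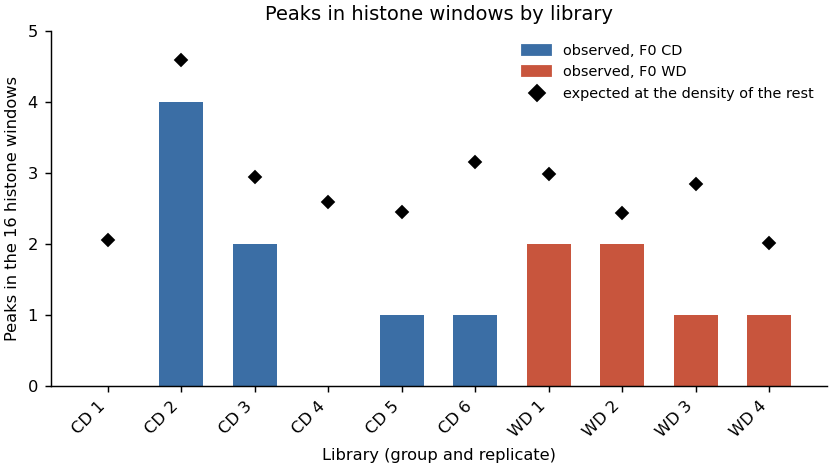
Peaks in the 16 histone windows (vertical axis, count) in each of the 10 libraries (horizontal axis, F0 CD in blue and F0 WD in red); bars are observed counts and diamonds are the counts expected at the density of the rest of the same chromosomes. All bars end below their diamond, with 0 peaks in F0 CD replicates 1 and 4 and 4 peaks in F0 CD replicate 2.

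By cluster, Hist1 held 13 of the 14 peaks against 22.3 expected (0.583, interval 0.310 to 0.996), and its density was below the rest of chromosome 13 in 8 of 10 libraries (p = 0.01172, adjusted 0.01758, exact sign-flip test). The exceptions were F0 CD replicate 2, with 4 peaks against 3.65, and F0 WD replicate 2, with 2 against 1.93. Hist2 held 0 peaks against 3.46 expected over all libraries (upper bound of the ratio 1.07), Hist3 held 1 with a ratio of 0.715 and Hist4 held 0 against 0.915. Clusters with 0 peaks in every library lie below the rest by construction and were not tested. With under 1 peak expected per library, a difference from the rest was not detectable at this depth for Hist2, Hist3 and Hist4.

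How low the windows lay depended on which other parts of the genome were taken as the measure, in comparisons chosen after the data were seen. The 10 stretches between the Hist1 windows held 86 peaks against 151.3 expected for chromosome 13, or 4.43 ± 2.03 peaks per Mb (SD, n = 10), and the Hist1 windows differed from them by 0.116 peaks per Mb, being lower in 5 of 10 libraries (p = 0.9023, exact sign-flip test). Most of this came from the longest stretch of 1477 kb, with 3.59 peaks per Mb. The other 9 stretches had 7.09 peaks per Mb, and the windows were lower in 9 of 10 libraries (difference -2.55 peaks per Mb, p = 0.05859, exact sign-flip test). Of the 49 other protein-coding genes in the locus, 36 encode vomeronasal receptors of the Vmn1r family.

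Gene arrays of another kind were compared next. Comparison densities were taken per chromosome and weighted by the histone window length there, 0.286 of 0.370 Mb being on chromosome 13. Weighted in this way, windows of olfactory receptor genes, built by the same rule on the same 4 chromosomes, had 2.87 peaks per Mb. Single libraries ran from 0.215 to 7.49, so this mean is a rough one. The histone windows were higher by 0.921 (lower in 5 of 10 libraries, p = 0.3555, adjusted 0.3594, exact sign-flip test). Windows of vomeronasal receptor genes, on 3 of the chromosomes, had 4.55 peaks per Mb against 3.70 for the histone windows there (lower in 7 of 10, p = 0.3594, adjusted 0.3594, exact sign-flip test). They take in the 36 Vmn1r genes of the Hist1 locus, so this comparison is not separate from that with the stretches between the Hist1 windows. Windows of all other protein-coding genes had 7.96 peaks per Mb, and the histone windows were lower in 10 of 10 libraries (difference -4.17, p = 0.001953, adjusted 0.005859, exact sign-flip test). So the histone windows lay below other genes in every mouse, and a difference from the receptor arrays was not detectable.

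**Figure D3:**
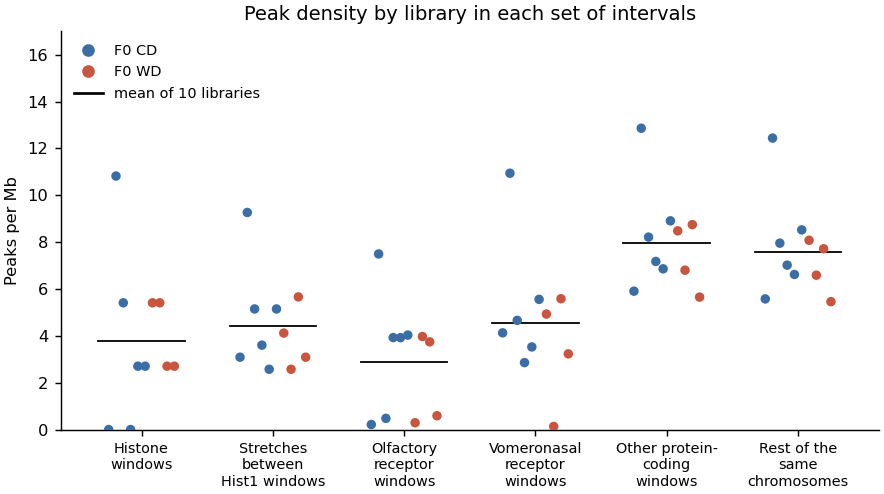
Peaks per Mb (vertical axis) of each library in 6 sets of intervals (horizontal axis), with F0 CD libraries in blue, F0 WD libraries in red and the mean of the 10 libraries as a black line. The histone windows (mean 3.79) share the range of the stretches between Hist1 windows (4.43) and of the olfactory (2.87) and vomeronasal (4.55) receptor windows and lie below the other protein-coding windows (7.96) and the rest (7.60). Values of the receptor windows, the other protein-coding windows and the rest are weighted by the histone window length of each chromosome.

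Of the 16 windows, 8 held a peak in some library and 8 in none, and no window held more than 1 peak in a library. The highest mean density was 14.0 peaks per Mb in the window from Hist1h4k to Hist1h2bn, from 2 peaks. Next came the window of Hist1h4j with 9.28, that of Hist1h2ba and Hist1h2aa with 9.03 and that from Hist1h4n to Hist1h2br with 6.34, each from 1 peak. The longest window, from Hist1h4h to Hist1h1e with 16 genes in 101.5 kb, had 6 peaks and 5.91 peaks per Mb. That was the window with peaks in the most libraries, 4 F0 CD and 2 F0 WD.

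**Figure D4:**
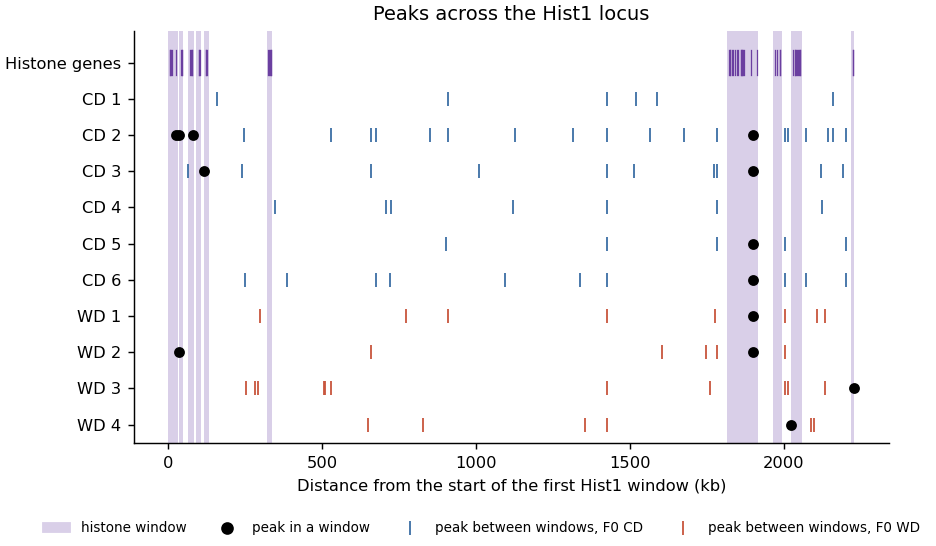
The Hist1 locus drawn to scale as the distance from the start of its first window (horizontal axis, kb); rows are the histone genes and the 10 libraries, shaded bands are the 11 windows, black dots are peaks in a window and coloured ticks are peaks between windows. The 13 dots fall in 7 of the 11 bands, with 6 of them in the same place in the longest window, and the long middle stretch has no histone gene.

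The 14 peaks came from 8 regions, where 17.6 regions would lie at the density of the rest. Of the 8 regions, 6 were found in 1 library, or 75.0% against 78.2% of all 113493 regions. The peaks were of middling strength. Their summits held 10 to 29 reads (median 18.5) at 3.18- to 8.38-fold over the local background, and they ranked at a median of 37.3% of their list from the top, the best at 1.32%. No region met the rule for naming, so those described here were chosen with their values in view.

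The region found most often was chr13:23610786-23611395. Summits of 20, 20, 18 and 29 reads were called there in F0 CD replicates 2, 3, 5 and 6, and summits of 15 and 13 reads in the first 2 F0 WD mice. As fold over the local background these were 5.36, 3.30, 4.10 and 6.36 in F0 CD and 3.56 and 4.22 in F0 WD, so the groups overlapped. It lies in an intron of the 37.5 kb GENCODE model of Hist1h2be, an H2B gene, 9.83 to 10.2 kb from its start. The second, chr13:21746091-21746355, was called in F0 CD replicate 2 with 28 reads and in F0 WD replicate 2 with 20. It is intergenic and 4.29 kb from the start of Hist1h4k, an H4 gene.

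The other 6 regions were each called in 1 mouse. In F0 CD they were chr13:21733552-21733751, 1.41 kb upstream of Hist1h4j, with 10 reads, chr13:21791738-21791946, 4.31 kb from Hist1h2bp, with 14 reads, and chr13:21827284-21827494, 4.81 kb from Hist1h4n, with 18 reads. In F0 WD they were chr11:58958691-58958924 in an intron of Trim17, 4.12 kb from Hist3h2a, with 19 reads, chr13:23733964-23734246, 4.72 kb upstream of Hist1h1c, with 19 reads, and chr13:23937334-23937539, 2.98 kb from Hist1h2aa, with 12 reads. Hist1h2bp encodes H2B, Hist1h4n encodes H4, Hist3h2a encodes H2A and Hist1h1c encodes a somatic H1. The weakest, near Hist1h4j, was 1 read above the lowest call of its library.

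The bases around the called summits were read next. For each region 101 bases centred on its strongest summit are given on the plus strand of GRCm38.p6, with runs of at least 3 CA or TG units in capitals. The first is chr13:23611007-23611107 and the second chr13:21746161-21746261, followed by chr13:23734036-23734136 near Hist1h1c, chr13:21733600-21733700 near Hist1h4j, chr13:23937391-23937491 near Hist1h2aa, chr11:58958757-58958857 near Hist3h2a, chr13:21791768-21791868 near Hist1h2bp and chr13:21827332-21827432 near Hist1h4n.
Hist1h2be intron: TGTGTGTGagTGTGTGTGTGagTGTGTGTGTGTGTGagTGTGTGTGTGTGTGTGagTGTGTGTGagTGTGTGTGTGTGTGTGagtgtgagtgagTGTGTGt
Hist1h4k region: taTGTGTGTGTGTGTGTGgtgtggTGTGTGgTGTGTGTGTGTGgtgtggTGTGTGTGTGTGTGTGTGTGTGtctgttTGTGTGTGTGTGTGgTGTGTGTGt
Hist1h1c region: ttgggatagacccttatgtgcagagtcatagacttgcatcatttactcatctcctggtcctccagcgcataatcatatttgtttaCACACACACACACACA
Hist1h4j region: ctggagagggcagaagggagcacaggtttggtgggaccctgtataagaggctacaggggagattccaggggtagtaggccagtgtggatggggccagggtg
Hist1h2aa region: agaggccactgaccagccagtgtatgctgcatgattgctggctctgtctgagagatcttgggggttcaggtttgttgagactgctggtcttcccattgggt
Hist3h2a region: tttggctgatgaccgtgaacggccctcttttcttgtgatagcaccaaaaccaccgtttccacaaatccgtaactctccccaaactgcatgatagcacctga
Hist1h2bp region: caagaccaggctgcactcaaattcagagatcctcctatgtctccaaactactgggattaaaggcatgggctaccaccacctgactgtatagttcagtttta
Hist1h4n region: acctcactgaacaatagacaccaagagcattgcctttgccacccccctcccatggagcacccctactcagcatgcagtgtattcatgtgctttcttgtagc

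Both regions found in more than 1 library were TG repeats, 100% and 77.7% repeat-masked, with uninterrupted runs of up to 16 and 22 units. A run of 10 or more CA or TG units was in 3 of the 8 regions, against 24.6% of all regions on chromosomes 1 to 19 and 47.0% of those found in 2 or more libraries. The windows hold fewer such runs than their surroundings, 67.6 per Mb against 107 in the rest, 109 in other protein-coding windows, 81.7 in olfactory and 69.0 in vomeronasal receptor windows. Regions with such a run were 3 in the windows against 4.21 expected (ratio 0.712, exact 95% Poisson interval 0.147 to 2.08), a difference not detectable at this depth, and regions without one were 5 against 13.4 (0.374, 0.121 to 0.873).

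The windows differed from the rest in other base features too. They had 18.9 CpG per kb against 8.36, 43.3% GC against 41.7%, and 22.7% repeat-masked bases against 33.5%. Near-identical copies are a limit of the alignment, since the authors removed alignments of low mapping quality. Of all 50-base words, 84.9% occurred once in the genome in the windows against 90.1% in the rest. Within the gene bodies the share was 75.5%, and in the 250 bp before the start sites, where no peak was found, 85.8%. By gene the median share was 98.8% for H1, 26.9% for H2A, 58.1% for H2B, 42.8% for H3 and 60.5% for H4, and 5 genes had no unique word. Of the testis genes, the body of Hist1h1t was 100% unique, that of Hist1h2aa 97.7% and that of Hist1h2ba 61.8%. The part of copy number and of base composition in the low counts was not tested.

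No difference between the diets was detectable in the windows. The ratio of observed to expected peaks was 0, 0.870, 0.680, 0, 0.409 and 0.317 in F0 CD replicates 1 to 6 and 0.670, 0.821, 0.351 and 0.496 in F0 WD replicates 1 to 4. The F0 WD values all fell within the range of F0 CD. The means were 0.379 ± 0.353 (SD, n = 6) and 0.584 ± 0.205 (SD, n = 4). The difference, F0 WD minus F0 CD, was 0.205 (exact two-sided permutation test over 210 splits, p = 0.3381, adjusted 0.5381 with the Hist1 windows as the second set). For Hist1 alone it was 0.155 (p = 0.5381, exact permutation test). Summed over the mice, F0 CD had 8 peaks against 17.8 expected and F0 WD 6 against 10.3, and the peaks per library gave p = 1 (exact permutation test). With so few peaks per mouse, a single peak more or fewer moves a ratio strongly.

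Detection of each region was compared as well. Among 24763 regions shared by 2 or more libraries, 2 were in the windows against 3.84 expected, and Fisher's exact test of the diets gave p = 1 for both. A region found in 2 libraries cannot go below p = 0.1333 in Fisher's exact test here, so that test could not have called the one near Hist1h4k. Over all regions, at an unadjusted p under 0.05, detection was higher in F0 WD for 0.553% and higher in F0 CD for 0.468%, and 0 passed after Benjamini-Hochberg adjustment. Fisher's exact test cannot go below p = 0.004762 with 6 against 4 mice, so an adjusted call would have needed 2359 regions at that value, and 19 reached it. No histone gene had a promoter peak in the 2 libraries that a test needs, so 0 of 1469 genes tested were members. Of these 1469, 0.749% were called in F0 WD and 0.34% in F0 CD unadjusted, and 0 adjusted, where 140 genes at the smallest p would have been needed.

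Histone genes outside the clusters and the machinery of histone expression were read in the same way. Of 15 replacement and variant histone genes listed, 14 were in the annotation and 3 had a peak within 1 kb of a start, each in 1 library, and they were H1foo, the oocyte linker histone, in F0 WD replicate 3, H1fx in F0 CD replicate 3 and H2afy, which encodes macroH2A1, in F0 CD replicate 4. Of 21 genes for histone expression and deposition, 4 had a peak, each in 1 library. They were Hinfp, the activator of H4 genes, Ssrp1, a subunit of the FACT complex, Hat1, an acetyltransferase of new H4, and Sympk, a scaffold of 3′-end processing. None of these genes passed a test, since each was found in fewer than 2 libraries. Both counts are to be read against the 22.7% of all genes.

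Promoter peaks did not serve to check the cell type. Of 20 spermatid and sperm genes, 2 had a promoter peak (Crem and Spem1, each in 1 library), as did 3 of 16 genes of epididymal epithelium (Lcn5, Rnase10 and Cftr, each in 1 F0 CD library) and 2 of 9 of immune cells, against the 22.7% of all genes. Among the last, Cx3cr1 had one in 4 libraries, 3 of them F0 CD, and Itgam in 1 F0 CD library. Summed over a list, a library had 0 to 1 such genes for sperm and for epithelium and 0 to 2 for immune cells. Their part in the histone windows was not tested.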

How the data were processed

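ATAC-seq peak lists of 10 mice were used. Per the study's methods, reads were trimmed (Trim Galore 0.6.10), aligned to mm10 (Bowtie2 2.4.5), freed of duplicates (Picard 2.24.0) and of low mapping quality, limited to short fragments, and peaks were called per mouse with MACS2 2.2.7.1. The deposited lists hold a score column, the fold enrichment (a ratio over local background), and -log10 p-values and -log10 q-values by the authors, and no read counts. Groups follow the sample titles, 6 F0 CD and 4 F0 WD, and the protocol text states these numbers the other way round.

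Distinct intervals were counted as peaks and placed by their midpoint in gene windows extended by 5 kb. Lengths leave out unknown bases. Expected counts apply the density of the rest of each chromosome. Densities of the rest and of comparison windows on several chromosomes are weighted by the histone window length on each. Reads at a summit were solved from fold and p within 0.001. Regions are peaks merged over libraries, kept for tests when found in at least 2. Tests were exact sign-flip, exact permutation and Fisher's exact tests with Benjamini-Hochberg adjustment (scipy 1.17.1, numpy 2.4.6, pandas 2.3.3, pysam 0.24.0, Python 3.11.15), checked on simulated data. For the sign-flip and permutation tests the simulated libraries had far higher expected counts than the 2.02 to 4.60 peaks here. That check does not cover counts as low as these. A log2 ratio was planned, and the linear ratio was used since 2 libraries had 0 peaks. Poisson intervals are 95% and cover counting error only.

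The members and gene lists were chosen with earlier results of these data known, and 1 gene of the immune cell list is not reported here. Genes were to be named when a promoter peak was found in at least 3 libraries or passed p under 0.05, together with Hist1h1t, Hist1h2aa and Hist1h2ba, the 5 densest windows, and the genes of the other lists with the most libraries (up to 6 each). Alternatives were other q-value limits, overlap rules, window extensions, summits, lengths, equal list sizes, backgrounds, left-out libraries and a replicate block.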

Additional observations from a re-analysis of the deposited data

How the results depend on the processing

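The density of the histone windows was below the rest of the chromosome under 8 other settings of peak strength, overlap, window width, summits, length, list size and gene background, and with each library left out the difference ran from -4.10 to -3.45 peaks per Mb (p = 0.003906 each, exact sign-flip test). Against backgrounds added after the data were seen the difference was 0.921 peaks per Mb for olfactory receptor windows and, on 3 chromosomes, -0.859 for vomeronasal receptor windows. For the Hist1 windows alone it was 0.116 against the stretches between them. The diet difference of the ratio ran from 0.126 to 0.303 with each library left out and reversed to -0.0496 with windows extended by 1 kb, which hold 6 peaks in place of 14, and p stayed between 0.219 and 0.905 over its other settings (exact permutation test). With the replicate block, over 4 pairs of equal number, it was 0.197, with 2 pairs up and 2 down (smallest possible p 0.125, exact sign-flip test), and the numbers mark different mice. The 2 regions found in more than 1 library became 1 when 3 libraries were asked for, or when replicate 2 of either diet was left out. Calls by diet stayed at 0. The precision is limited by the 14 peaks and by the missing read counts.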

Other observations

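The tRNA genes beside the histone genes were counted for the same locus. The stretches between the Hist1 windows hold 75 of the 105 tRNA genes annotated on chromosome 13 and the windows hold 3, and none of the 14 peaks in the windows lay over a tRNA gene. In single libraries the median distance from a histone start to the nearest summit was 29.1 kb in F0 CD replicate 2 and up to 200.2 kb in F0 WD replicate 4, against 23.5 kb and 55.4 kb for the other genes of the same chromosomes in these libraries. In F0 WD replicate 2 the histone genes were nearer, with 41.2 kb against 44.1 kb.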
